A study of Arabidopsis thaliana with 8 samples.

Results

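The comparison set the nucleosomes listed after a dexamethasone (dex) treatment against those listed after a mock treatment, both at a low digest with micrococcal nuclease (MNase), gene by gene. It used 4 of the 8 libraries of the series and all 27444 protein-coding genes on the 5 nuclear chromosomes of Arabidopsis thaliana, with no choice of genes by their values. All plants carried 35S:LFY-GR in the Landsberg erecta background, so the transgene was present in the mock samples too. This fusion joins LEAFY (LFY) to a glucocorticoid receptor domain that binds the hormone. It is held outside the nucleus until dex is given, and the 35S promoter drives it in most cell types rather than where LFY is normally active. Seedling roots were cultured for at most 5 days on medium that induces callus and received mock or dex solution for 1 h, with 2 libraries for each treatment. The tissue label is callus, which lists of nucleosomes cannot check, and the explants hold several cell types whose nucleosomes are summed.

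A nucleosome is a stretch of DNA wrapped around histone proteins, and MNase cuts the DNA between nucleosomes more readily than the wrapped DNA. A low digest keeps nucleosomes that a standard digest destroys, so-called fragile nucleosomes, which are often found just upstream of gene starts. LFY is the transcription factor that gives new meristems a floral fate, and it can bind its site in DNA that is wrapped in a nucleosome. Genes that are read often have a stretch poor in nucleosomes before the start and an array of positioned nucleosomes after it, and AT-rich DNA, above all runs of A or T, wraps less easily than GC-rich DNA.

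The data were 1 deposited list of nucleosomes per condition, labelled as pooled. No spread between replicates could thus be had, and nothing in this comparison carries a test. The name inside the mock list does not say whether both libraries entered it. The mock list held 316733 nuclear nucleosomes and the dex list 242336, or 0.765 times as many, each an interval of 140 bp. The paper gives a smaller count for low digest dex than this dex list holds. Its counts for the other conditions are close to the lengths of their lists. Whether the dex list used here is the one behind the paper's count is thus unknown, and every dex value below rests on it. The number of reads behind the lists is unknown, and a shorter list cannot be told apart from shallower sequencing or from the different calling. The main counts are therefore given with the whole lists and again at equal list lengths, where the 74397 mock nucleosomes of lowest occupancy signal (23.5%) were left out. In the dex list 100% of the occupancy signals were multiples of 8 and 64.5% took 1 of 4 values, whereas the mock list held 3490 distinct values. The signal was used only to order nucleosomes within a list. A rank percentile below is the rank of a nucleosome in its own list, from the lowest signal up, as a percentage of the list length. Tied nucleosomes share their middle rank, so percentiles in dex move in coarse steps and exceed the share of the list that lies below. Whether this coarse scale bears on which nucleosomes were listed was not tested.

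The windows differed in direction once list length was set equal. In the promoter (1000 bp upstream of the start) a gene held on average 2.13 nucleosome centers in mock, 1.66 in mock at equal length and 1.86 in dex. In the first 500 bp of the gene the means were 1.77, 1.33 and 1.23 over 27329 genes, and in the body beyond that they were 7.47, 5.87 and 5.70 over 25481 genes. The dex list thus held 0.873, 0.692 and 0.763 times as many centers as the whole mock list in promoters, first 500 bp and bodies, and 1.12, 0.923 and 0.97 times as many at equal lengths. Relative to the rest of its list, dex was richer in promoter nucleosomes and poorer in nucleosomes early in the gene.

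Counted by gene, 36.9% of promoters held fewer nucleosomes in dex and 21.8% held more with the whole lists (10127 and 5983 genes). At equal lengths the balance turned over, with 20.8% fewer and 34.7% more (5722 and 9535 genes). In the first 500 bp, 48.6% of genes held fewer and 10.7% more with the whole lists, against 29.4% fewer and 22.0% more at equal lengths. In bodies the shares were 66.0% fewer and 11.1% more, against 38.1% fewer and 32.1% more at equal lengths. These shares are the background for every group of genes below, where a gene counts as fewer or more from a difference of 1 nucleosome. A difference of at least 2 nucleosomes at equal lengths was found in 5.08% of promoters with fewer and 10.4% with more.

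**Figure D1:**
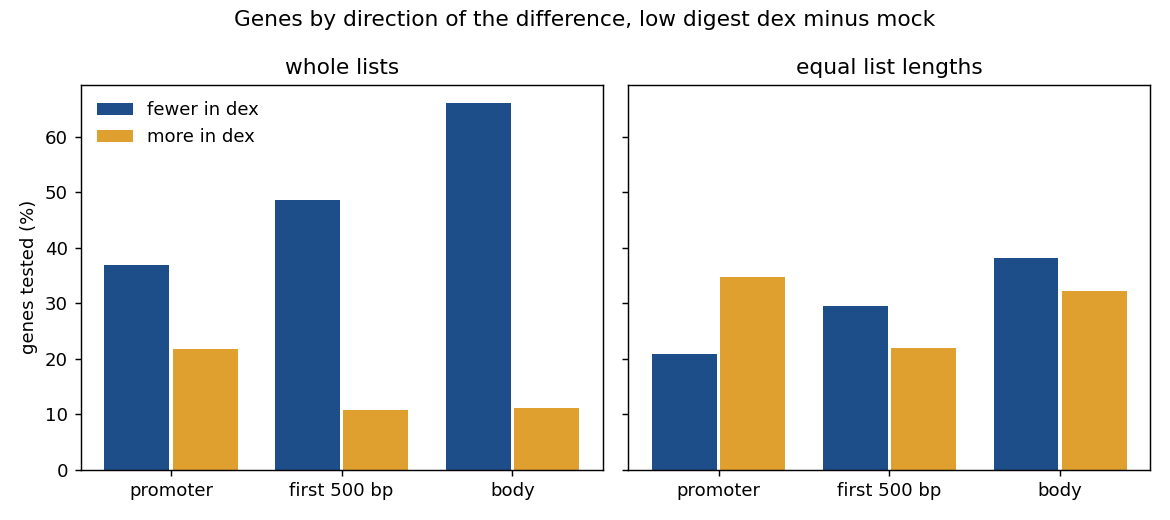
Bars show the percentage of the genes tested with fewer (blue) or more (yellow) nucleosome centers in dex than in mock at low digest, for promoter, first 500 bp and body, with whole lists (left) and at equal list lengths (right). Fewer exceeds more in 3 of 3 windows on the left, while on the right the promoter bars turn over to 20.8% fewer and 34.7% more.

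Promoters with no listed nucleosome were 17.2% of all in mock, 24.5% in mock at equal length and 19.2% in dex. For the first 500 bp the same shares were 11.1%, 20.7% and 23.7%, and with whole lists 4103 genes held a nucleosome there in mock and none in dex, and 645 the reverse. At equal lengths these numbers were 2877 and 2059. Among the 25481 genes with all windows, 11% had more in the promoter and fewer in the first 500 bp at equal lengths, and 5.05% had the opposite pairing. How far these pairings follow from the shares in each window alone was not tested. A share of 2.47% had fewer in all 3 windows and 2.50% had more in all 3, against 12.7% and 0.22% with whole lists.

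Placing the centers along the gene showed where the lists parted. Per 100 genes, the stretch from -200 to -100 bp held 16.8 centers in mock, 13.3 in mock at equal length and 16.8 in dex, and the dex-to-mock ratio of 1.26 at equal length was the highest of the 100-bp steps from -1000 to 1500 bp. The ratio was 1.06 at -1000 to -900 bp and 1.17 in the last 100 bp before the start. It passed to 0.983 in the first 100 bp of the gene and was lowest, 0.902, from 300 to 400 bp. There mock held 37.2 centers per 100 genes (27.8 at equal length) and dex 25.1. Further in, from 900 to 1100 bp, the ratio was 0.979 and 0.992. With whole lists the ratio had the same shape, from 0.996 at -200 to -100 bp to 0.675 at 300 to 400 bp.

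**Figure D2:**
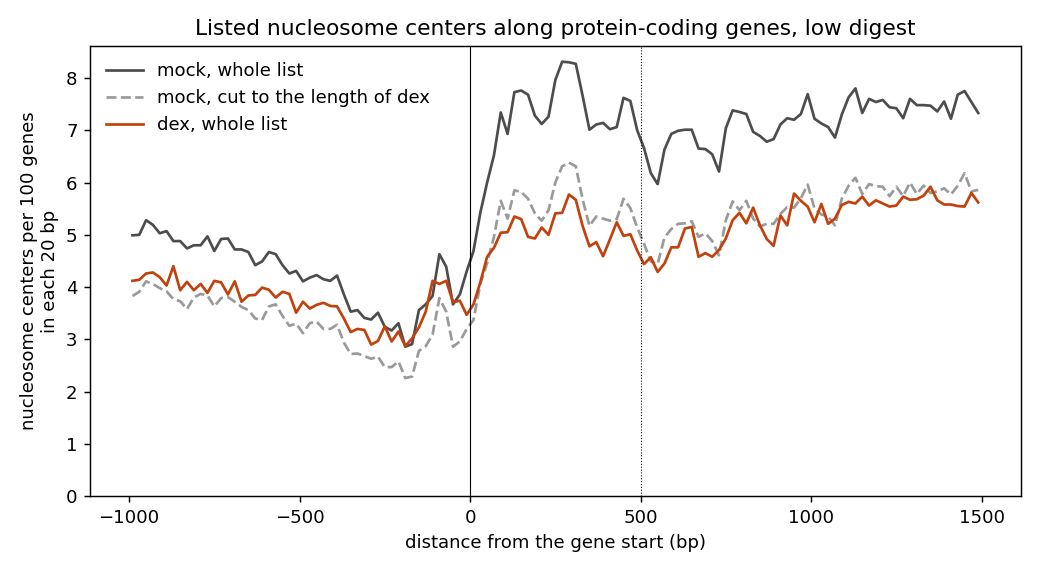
Nucleosome centers per 100 genes in steps of 20 bp, by distance from the gene start in bp, for mock (dark grey), mock cut to the length of the dex list (dashed light grey) and dex (orange); the dotted line marks 500 bp. Upstream of the start the dex line lies near or above the dashed line, and inside the gene it lies near or below it.

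Along the body, cut into 5 equal parts in 19120 genes of at least 1500 bp, the ratio at equal length was 0.972, 0.968, 0.941 and 0.936 in the first 4 parts and 1.05 in the last part before the gene end. The last part held 3.14 centers per kb in mock, 2.53 in mock at equal length and 2.65 in dex. Chromosomes were alike, with promoter ratios from 1.1 to 1.14 at equal length. Gene length made little difference to the promoter ratio, which ran from 1.11 to 1.13 over 5 classes of length.

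Base composition went with the direction of the difference. With promoters in 10 classes of about equal size by GC content, in the class poorest in GC (median 24.9%), a promoter held on average 0.444 nucleosomes in mock, 0.301 in mock at equal length and 0.442 in dex. In the class richest in GC (median 41.3%) the means were 4.14, 3.38 and 3.11. At equal lengths 8.26% of the poorest class held fewer and 20.5% more, whereas in the richest class 39.4% held fewer and 23.9% more. The ratio of dex to the whole mock list was 0.995 in the poorest class and 1.07 in the next 2, although the dex list was shorter, and it was 0.75 in the richest class. The same held in the first 500 bp, where the ratio at equal length went from 1.36 to 0.851, and in bodies, where it went from 1.1 to 0.874. The part that base composition has in the result was not tested. With 1 list per condition the treatment, any difference between libraries and the different calling cannot be told apart.

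**Figure D3:**
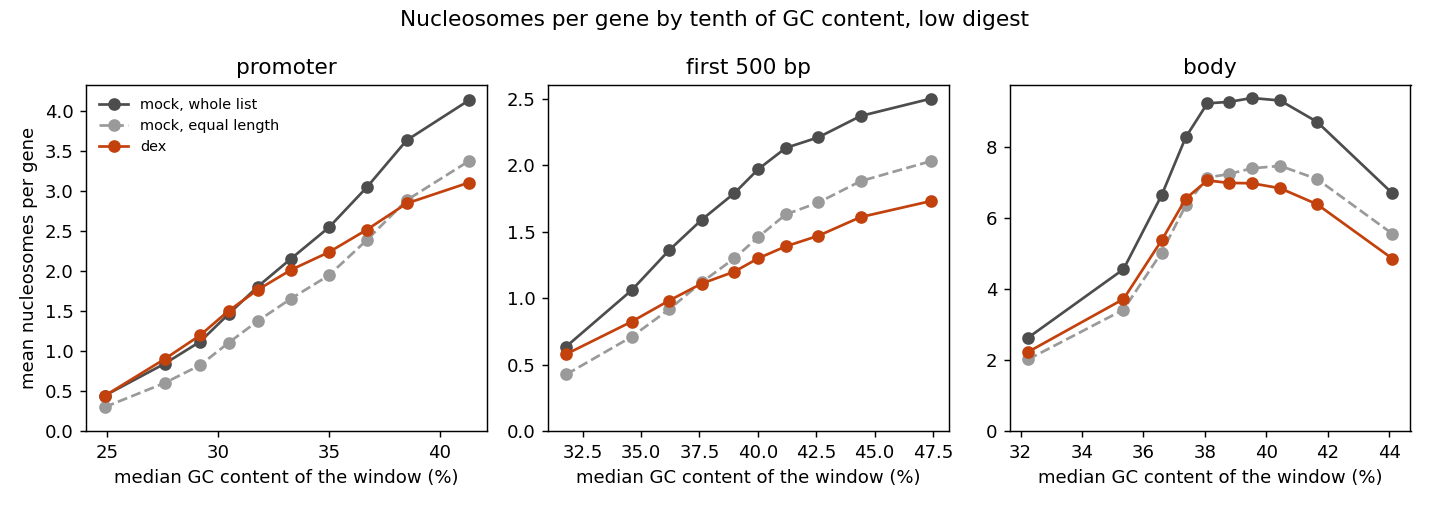
Mean nucleosomes per gene in each of 10 classes of genes by GC content of the window (x axis, median GC of the class in percent), for promoter, first 500 bp and body, in mock, mock at equal length and dex. In each panel the dex line starts above the dashed mock line at low GC and ends below it at high GC, as from 0.442 against 0.301 to 3.11 against 3.38 in promoters.

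Promoters also differed by whether they lay within another gene. The 11248 promoters that overlapped no other annotated gene had a median GC content of 29.3% and held 1.26 nucleosomes in mock, 0.958 at equal length and 1.29 in dex, a ratio of 1.34 at equal length. Of them 12.9% held fewer and 35.7% more. The 16196 that overlapped another gene had a GC content of 35.7% and held 2.73, 2.14 and 2.26 nucleosomes, a ratio of 1.05, with 26.4% fewer and 34.1% more. The core of the LFY binding motif, CCANTGG, which reads the same on both strands, was found in 12.3% of all promoters of 1000 bp. At equal lengths 24.6% of these 3366 promoters held fewer and 34.7% more, against 20.3% and 34.7% of those without it, and their GC content was 34.9% against 32.3%.

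The nucleosomes themselves were compared by the distance from each center to the nearest center in the other list. Of 54749 mock nucleosomes centered in a promoter, 37.9% had a dex center within 20 bp and 34.9% had none within 70 bp. Those without were of low occupancy in their own list (median rank percentile 33.4, against 71.8 for those within 20 bp), with similar GC content (40% and 40.7%). Of 47444 dex promoter nucleosomes, 43.8% had a mock center within 20 bp and 25.1% had none within 70 bp. The unmatched dex nucleosomes were both lower in rank (35.8 against 64.1) and poorer in GC (35.0% against 40.7%). In the first 500 bp 41.6% of mock and 17.4% of dex nucleosomes were unmatched, and in bodies 37.5% and 18.9%. These shares set a longer mock list against a shorter dex list. At equal lengths, computed after these values were seen, the unmatched shares were 28.1% of mock and 35.1% of dex in promoters, 34% and 28.9% in the first 500 bp, and 31.6% and 29.2% in bodies, so that in promoters the order turned over. The unmatched dex promoter nucleosomes were again poorer in GC than those within 20 bp (35.7% against 41.4%), whereas both kinds of mock nucleosome had 41.4%. With whole lists, runs of at least 5 A or at least 5 T lay in 55.1% of unmatched dex promoter nucleosomes, in 51.9% of unmatched mock ones and in 41.9% to 42.0% of those matched within 20 bp.

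The sequences below are examples of such promoter nucleosomes, not typical ones. They were taken from the genes with the largest differences that had a nucleosome outside any annotated gene and without a partner in the other list. Runs of at least 5 A or T are in capitals, and each is printed 5′ to 3′ on the strand of its gene from the TAIR10.1 genome of RefSeq. The first 2 were listed in mock, at HDA18, a histone deacetylase gene (chr5:24574452-24574591, minus strand), and at AT5G05110, a cystatin family gene (chr5:1509012-1509151, minus strand). The other 3 were listed in dex, at AT1G48400, which encodes an F-box protein (chr1:17884432-17884571, minus strand), MEE26 (chr2:14710532-14710671, plus strand) and AT3G59190, another F-box gene (chr3:21883412-21883551, plus strand).
HDA18, mock: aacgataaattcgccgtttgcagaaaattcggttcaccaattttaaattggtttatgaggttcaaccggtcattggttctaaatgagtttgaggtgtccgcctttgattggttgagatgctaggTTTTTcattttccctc
AT5G05110, mock: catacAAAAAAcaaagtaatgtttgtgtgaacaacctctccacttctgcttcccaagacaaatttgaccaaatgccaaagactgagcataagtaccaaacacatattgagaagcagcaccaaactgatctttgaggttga
AT1G48400, dex: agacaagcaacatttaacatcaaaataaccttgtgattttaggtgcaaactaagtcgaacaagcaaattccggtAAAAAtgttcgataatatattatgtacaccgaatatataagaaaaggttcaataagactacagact
MEE26, dex: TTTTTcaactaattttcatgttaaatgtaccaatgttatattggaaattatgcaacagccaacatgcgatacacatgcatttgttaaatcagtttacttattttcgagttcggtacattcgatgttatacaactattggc
AT3G59190, dex: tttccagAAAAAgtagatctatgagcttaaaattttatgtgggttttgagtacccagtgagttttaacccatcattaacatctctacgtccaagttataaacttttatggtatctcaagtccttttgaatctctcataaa

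The GC content of the 2 mock nucleosomes was 39.3% and 38.6%, in the order printed, and that of the 3 dex nucleosomes 30.7%, 30.7% and 32.1%. Rank percentiles were 48.2 and 43.6 in mock and 1.91, 51.9 and 15.2 in dex.

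AP1, a MADS-box factor that acts with LFY in floral meristems and is its best known target, showed a nucleosome kept in both lists. The gene lies on the minus strand of chromosome 1 (25982294 to 25986349). Its promoter held 3 nucleosomes in mock, centered at -462, -152 and -2 bp from the start, and 1 in dex, at -162 bp, with 2 left in mock at equal length. The nucleosome near -150 bp was among the strongest of each list, with rank percentiles of 99.6 in mock and 99.9 in dex, and its center differed by 10 bp. It covered a CCANTGG core, capitalised here, in mock (chr1:25986432-25986571) and in dex (chr1:25986442-25986581), both read 5′ to 3′ on the minus strand of TAIR10.1.
AP1, mock: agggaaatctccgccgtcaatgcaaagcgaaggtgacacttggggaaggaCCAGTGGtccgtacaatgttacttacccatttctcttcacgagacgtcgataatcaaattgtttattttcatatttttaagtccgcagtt
AP1, dex: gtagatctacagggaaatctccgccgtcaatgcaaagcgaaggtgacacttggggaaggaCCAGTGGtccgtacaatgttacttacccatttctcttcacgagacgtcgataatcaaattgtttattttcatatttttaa

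The middle of the motif lay at -16 bp from the center of the nucleosome in mock and at -6 bp in dex, counted in the direction of the gene. Both nucleosomes of AP1 that were listed in mock alone were weaker, with rank percentiles of 39.7 at -462 bp and 22.7 at -2 bp, and the latter falls below the equal-length limit. The first 500 bp of AP1 held 0 nucleosomes in all lists used here at low digest, and its body held 7 in mock, 5 at equal length and 7 in dex.

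The list of LFY and its pathway genes held 16 members. With whole lists 6 promoters held fewer in dex and 3 more, and at equal lengths 5 and 5 (31.2% each). CAL, the close relative of AP1, held 3 in mock, 2 at equal length and 1 in dex, and UFO, the F-box partner of LFY, held 1, 1 and 0. SEP3, a cofactor of floral organ genes, held 2, 2 and 1. More nucleosomes were listed in dex at the promoters of AP3, a petal and stamen identity gene (1, 1 and 3), of ARR7, a negative regulator of cytokinin response (2, 1 and 3), and of PID, a kinase of auxin transport (2, 2 and 3). At AG, PI and TFL1 the promoter held 0 in each low digest list. In bodies, 11 of 16 held more and 3 fewer at equal lengths, a median difference of 1 against 0 over all genes, but with whole lists 8 held fewer and 5 more. The median GC content of these bodies was 35.3%, against 38.4% over all genes.

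LFY itself held 2 promoter nucleosomes in mock, 1 at equal length and 2 in dex. Its first 500 bp held 3, 2 and 3, and its body 6, 4 and 9. In dex, the 3 nucleosomes of its first 500 bp had a rank percentile of 100 each, and in mock they had 18.6, 99.9 and 97.1. Reads from exons of the transgene and of the LFY locus cannot be told apart, so these values may hold both.

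Among 10 other floral organ and MADS genes, 5 promoters held more in dex and 1 fewer at equal lengths (5 and 2 with whole lists). SEP1 and SHP1, an organ identity and a fruit opening gene, each held 0 in mock and 2 in dex. FUL, which shapes the fruit and acts with AP1, held 1 in mock and 3 in dex, while SEP2 held 2 in mock and 0 in dex. At SEP2 a mock center at -20 bp lay near a dex center at 20 bp, inside the gene. At FUL a dex center at -2 bp lay near a mock center at 58 bp. Part of these 2 differences thus hinges on the boundary at the start. The mean was 0.50 nucleosomes per promoter in mock and 1.00 in dex, so the whole list rests on a few nucleosomes in promoters of low GC content (29.1%).

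The 12 flowering time genes held more in 7 promoters and fewer in 1 at equal lengths, with a median difference of 1. With whole lists 5 held more and 2 fewer, with a median difference of 0. The median GC content of these promoters was 29.75%. CO, the photoperiod regulator, held 3 in mock and 5 in dex, and SOC1, SVP, FD and SPL9 each held 1 more in dex than in either mock list. FT, which encodes the mobile flowering signal, held 1 in each. FLC, the repressor of flowering that vernalisation silences, held 1 promoter nucleosome in each list, but at -133 bp in mock and at -333 bp in dex. Its body held 8 in mock, 6 at equal length and 12 in dex. GI, a clock gene, was even with 4, 4 and 4 in the promoter and 27, 26 and 27 in the body.

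Regulators of root and callus identity showed more promoter nucleosomes in 7 of 14 and fewer in 1 at equal lengths (5 and 1 with whole lists). BBM, an AP2-type factor that promotes embryonic and callus growth, lies on chromosome 5 (5742393 to 5745748, minus strand) and held 1 promoter nucleosome in mock and 4 in dex. The mock nucleosome was centered at -373 bp and the dex nucleosomes at -393, -503, -813 and -923 bp. SHR, which specifies the endodermis, held 0 in mock and 2 in dex, at -695 and -885 bp. IAA14, an auxin response repressor, held 3 and 2. In bodies, 10 of 14 held fewer with whole lists, among them SCR (11, 10 at equal length and 5 in dex), whereas 7 held more and 4 fewer at equal lengths.

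Of 10 shoot meristem genes, 6 promoters held more and 2 fewer at equal lengths (5 and 2 with whole lists). CUC1, an organ boundary gene, held 2 in mock and 4 in dex, and WUS, the stem cell regulator, 0 and 1. AS1, a leaf gene that keeps meristem genes off (chromosome 2, 15781232 to 15783480, minus strand), went the other way. It held 3 in each mock list, at -81, -861 and -981 bp with rank percentiles of 46.9, 65.5 and 83.8, and 0 in dex. Within the first 500 bp 7 of these 10 genes held fewer in dex with whole lists and 4 at equal lengths.

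The 17 chromatin regulators had promoters richer in GC (34.8%) than the developmental lists. At equal lengths 8 promoters held more and 5 fewer, and with whole lists 4 and 7. PKL, a CHD3 remodeler, held 2 in mock and 4 in dex, and H1.1, a linker histone gene, 1 and 3. A dex center of PKL at -5 bp lay near a mock center at 5 bp, inside the gene. SWI3C, a subunit of the SWI/SNF complex, held 6, 5 at equal length and 4 in dex. Long bodies held fewer even at equal lengths for BRM (49, 40 and 35) and SYD (74, 55 and 51), ATPases of such complexes. MSI1, a histone chaperone subunit, held 3 nucleosomes in its first 500 bp in either mock list and 0 in dex.

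Housekeeping genes were included for their broad expression. At equal lengths 2 of 9 promoters held more and 1 fewer, and in bodies 4 held more and 2 fewer. With whole lists both turned over, to 2 more and 4 fewer in promoters and 1 more and 6 fewer in bodies. ACT7 held 3 in mock, 2 at equal length and 2 in dex in its promoter, and 2, 0 and 3 in its first 500 bp. In its dex list the first 500 bp nucleosomes stood at 0, 200 and 410 bp, against 160 and 350 bp in mock. A mock center at -40 bp, counted in the promoter, lay near the dex center at 0 bp. With whole lists the counts in both windows thus hinge on the boundary at the start. UBQ10 held 5 promoter nucleosomes in mock and 7 in dex, with a rank percentile of 100 for each in dex. This polyubiquitin gene has close relatives and read pairs with several best positions were not kept, so its counts are given as uncertain.

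Families defined by their product names gave larger numbers. At equal lengths promoters held more in dex in 38.6% of 171 MYB factors (12.9% fewer), 46.4% of 56 WRKY factors (16.1% fewer), 47.4% of 78 SAUR genes, which are rapid auxin response genes (15.4% fewer), and 38.3% of 120 MADS-box and AGAMOUS-like factors (18.3% fewer). The ratio of means was 1.38, 1.31, 1.35 and 1.31, in that order, against 1.12 over all genes. With whole lists the shares with more and with fewer were 23.4% and 22.8% for MYB factors, 37.5% and 19.6% for WRKY factors and 34.6% and 29.5% for SAUR genes, and for MADS-box factors they turned over to 30% and 32.5%. These stand against 21.8% and 36.9% over all genes. Disease resistance genes were lowest at 0.996, with 21.4% fewer and 23.9% more. Pentatricopeptide repeat genes, whose proteins edit and process organelle RNA, had a ratio of 1.05. Promoter GC content ran with this order in part, at 29.5% for WRKY factors, 30.1% for MYB factors, 34.6% for disease resistance genes and 36.2% for pentatricopeptide repeat genes.

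Inside genes the order changed. In the first 500 bp, 236 pentatricopeptide repeat genes held 2.20 nucleosomes in mock, 1.66 at equal length and 1.29 in dex, with 66.1% fewer with whole lists and 44.9% at equal lengths. SAUR genes, richer in dex at the promoter, held 2.06, 1.58 and 1.28 there, with 66.7% fewer with whole lists and 43.6% at equal lengths. Bodies of 244 cytochrome P450 genes, which encode oxidising enzymes of secondary metabolism, held 6.77, 5.31 and 4.56 nucleosomes, with 85.7% fewer with whole lists and 55.7% at equal lengths. At equal lengths 52.5% of receptor-like kinase bodies and 50% of disease resistance gene bodies held fewer, and 82.4% and 74.7% with whole lists. MADS-box bodies stood at the other end with 3.76, 2.65 and 3.31 nucleosomes, 22.2% fewer and 43.5% more at equal lengths, but 50% fewer and 21.3% more with whole lists. Body GC content was 40.1% for cytochrome P450 genes and 36.3% for MADS-box genes. In the other families the promoter ratio at equal length was 1.25 for peroxidases, 1.21 for receptor-like kinases, 1.18 for extensins and cell wall hydrolases, 1.15 for cytochrome P450 genes, 1.14 for histones, 1.09 for defensin-like genes, 1.08 for ribosomal proteins, 1.05 for F-box proteins, 1.03 for photosynthesis genes and 1 for 9 ethylene response factors.

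**Figure D4:**
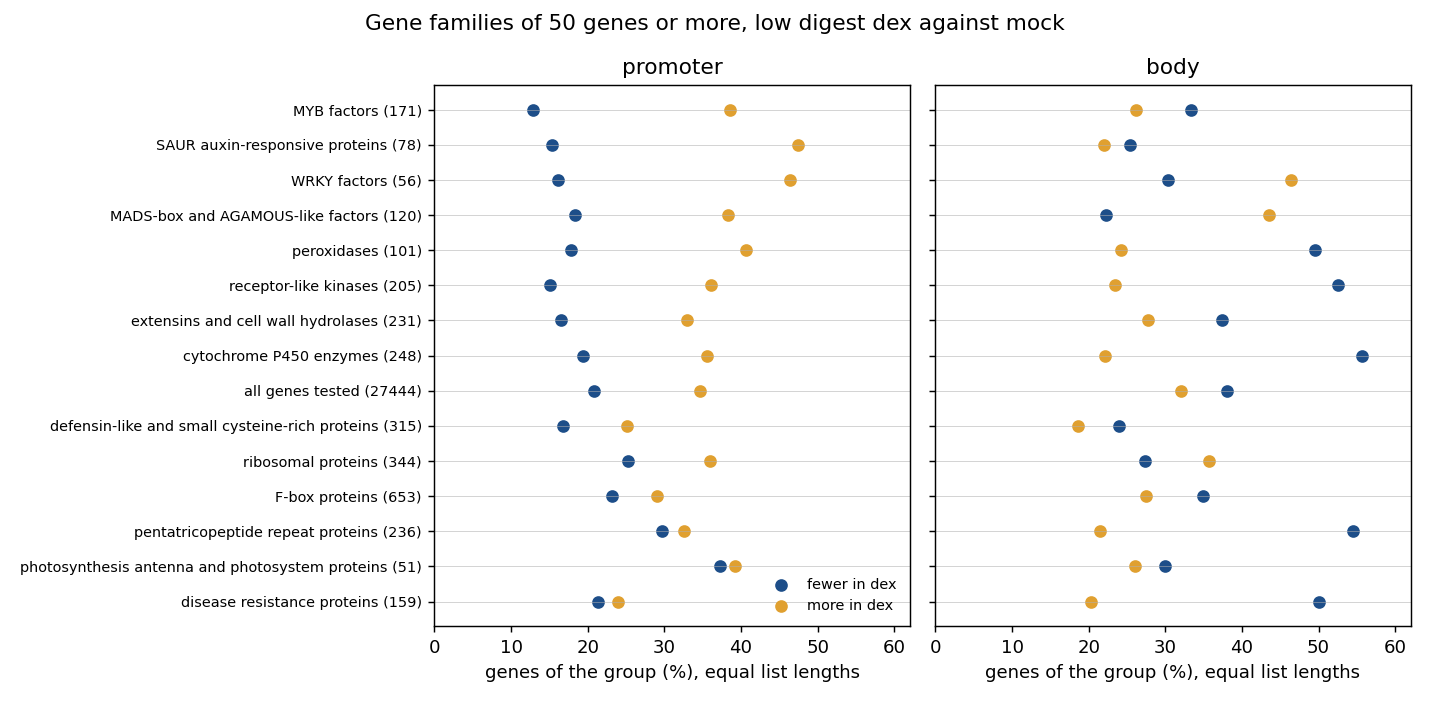
Percentage of genes in each family with fewer (blue) or more (yellow) nucleosome centers in dex at equal list lengths, for promoters (left) and bodies (right), with the number of promoters tested in brackets and families ordered by promoter ratio. WRKY promoters reach 46.4% more, and cytochrome P450 bodies 55.7% fewer.

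The largest single differences were then read off by rule, as differences that kept their direction with whole lists. HAP6, which encodes a ribophorin of protein glycosylation (chromosome 4, 11278403 to 11283885, plus strand), held 6 promoter nucleosomes in each mock list and 1 in dex, and the dex nucleosome at -251 bp matched a mock center at the same distance. AT5G35510, a disease resistance gene, held 6, 6 and 1, and the promoter bases covered were 770 in mock and 74 in dex. COS1, which encodes lumazine synthase of riboflavin synthesis, held 5 in mock, 4 at equal length and 0 in dex, and AT1G29030 held 4, 4 and 0. Promoter GC content of the 6 with most lost ran from 35.9% to 43.3%. AT3G30705 was the sole gene of these 6 whose promoter overlapped no other annotated gene, so centers missing at the others may lie in a neighbouring gene.

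At the other end, AT1G75420, a glycosyltransferase family gene (chromosome 1, 28305218 to 28307548, plus strand), held 0 promoter nucleosomes in either mock list and 5 in dex, centered at -16, -176, -386, -646 and -966 bp with rank percentiles from 15.2 to 64.1. AT2G20805 held 1 in mock and 6 in dex. MEE26 held 1 in mock, 0 at equal length and 5 in dex, and AT1G48400 held 2, 0 and 5. Their promoter GC content ran from 30.5% to 38% over the 6 genes with most gained. AT1G75420 was the sole gene of these 6 whose promoter overlapped no other gene.

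In the first 500 bp, AT3G25660, an amidase family gene, held 4 nucleosomes in each mock list, at 22, 142, 272 and 412 bp, and 0 in dex. AT2G20760, a clathrin light chain gene, and AGD6, a regulator of vesicle traffic, also held 4 and 0. NPR3, a salicylic acid receptor of plant immunity, held 0 in mock and 3 in dex, at 64, 249 and 444 bp. Among bodies, BIG, a giant protein needed for auxin transport, held 87 in mock, 74 at equal length and 57 in dex, and ACC2, an acetyl-CoA carboxylase, 56, 48 and 32. AT1G27570, a lipid kinase family gene, held 23, 20 and 37, and AT1G76780, 20, 7 and 26.

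The nucleosome nearest the start was then placed, as the first center from 0 to 300 bp. It was found in 77.0% of genes in mock, 63.6% in mock at equal length and 60% in dex. With whole lists 15173 genes had it in both, 5971 in mock alone and 1301 in dex alone. At equal lengths the numbers were 13459, 3991 and 3015.

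Among genes with it in both lists the median position was 119 bp in mock and 130 bp in dex with whole lists, and 129 and 128 bp at equal lengths. The median shift was 0 bp with either list length. At equal lengths 31.0% lay within 10 bp, 45.1% within 20 bp and 25% differed by more than 70 bp. Shifts of more than 10 bp further into the gene made up 35.1% and shifts toward the start 33.9%. With whole lists they were 39.7% and 30.2%, so the excess of downstream shifts went with the longer mock list. The gap between this nucleosome and the last one upstream had a median of 320 bp in mock at equal length and 305 bp in dex, and of 290 and 310 bp with whole lists, over 6702 and 8266 genes with both. The sign of the change in the gap thus turned with list length.

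**Figure D5:**
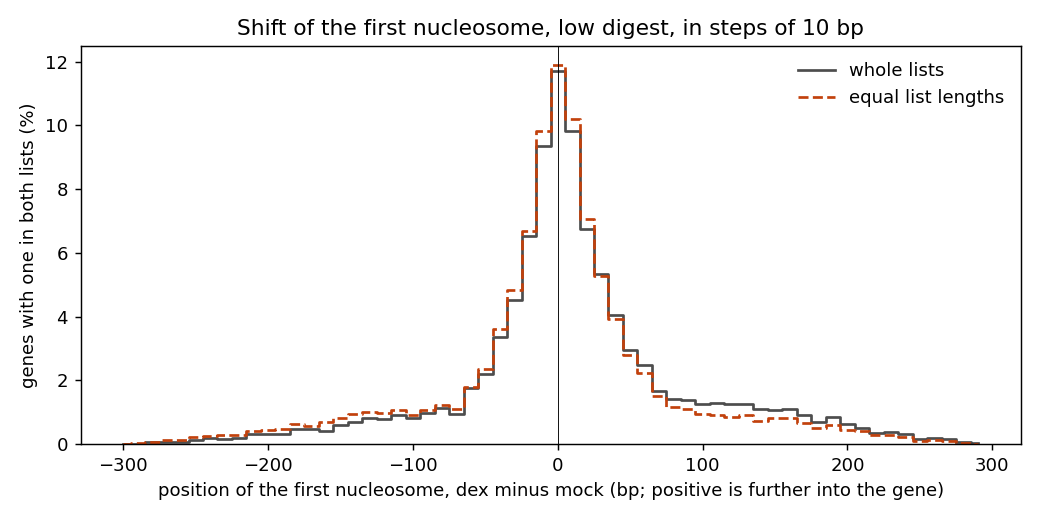
Percentage of genes with a first nucleosome in both lists, by the shift of its center in dex against mock in steps of 10 bp, positive into the gene, for whole lists (grey) and equal list lengths (dashed orange). Both curves peak at 0 bp, with 11.7% and 11.9% of genes, and the whole-list curve is higher beyond 70 bp on the downstream side.

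The largest shifts by the same rule moved by almost the width of the window. In NADP-ME3, a malic enzyme gene, the first center lay at 8 bp in either mock list and at 298 bp in dex. In WNK4, a protein kinase gene, it lay at 3 and 293 bp. In the opposite direction AT3G07200, a RING domain gene, had it at 290 bp in mock and at 0 bp in dex, and AT2G17680 at 294 and 4 bp. The window of 300 bp fixes the limit of these shifts.

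The high digest lists, the other pair in the series, were read for the same genes. The list labelled high digest dex carries an inner name that points to low digest dex, so its identity is uncertain. At equal lengths within that pair, 30.4% of promoters held fewer and 29.0% more. The 1393 promoters that had at least 2 fewer at low digest held 3.74 nucleosomes in high digest mock cut to equal length, 4.68 in the uncut mock list and 4.13 in the dex list, with 22.0% fewer and 44.7% more. The 2844 with at least 2 more at low digest held 3.16, 4.34 and 2.77, with 45.8% fewer and 22.6% more. At equal lengths the promoters of both sets thus leaned against their low digest direction, but against the uncut mock list the first set also held fewer in dex. For the first 500 bp, 17.2% of all genes held fewer and 32.2% more at high digest. The 1529 genes with at least 2 fewer at low digest had 13.6% fewer and 40.7% more. The 846 with at least 2 more had 23.5% fewer, above the share over all genes, and 33.7% more, near that share. Over all bodies 42.0% held fewer and 27.3% more. Of 4963 bodies with at least 2 fewer at low digest, 41.6% held fewer, near the share over all bodies, and 34.7% more. Of 3765 with at least 2 more, 57.9% held fewer and 23.0% more. Among the genes named above, HAP6 held 6 promoter nucleosomes in uncut high digest mock, 5 at equal length and 6 in the dex list. AT5G35510 held 5, 5 and 7, and AT1G75420 held 4, 3 and 3.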

How the data were processed

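MNase-seq was done on 35S:LFY-GR root explants, and the 4 low digest libraries (2 mock, 2 dex) entered the comparison through deposited lists labelled as pooled. Mapping to TAIR10 was done by the authors with Bowtie 1.2.2 (pairs with a single best position), and their notes also name Picard 2.9.4. They called nucleosomes with DANPOS, and of the low digest samples only the dex replicates are described as pooled before the call. The deposited signal is the occupancy at each summit, and its scaling between lists is not stated, so it was used only as rank. Depth is unknown, and no interval or limit was computed. The reference is of the Columbia accession, whereas the plants were Landsberg erecta.

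Interval starts were read as counting from 0. Centers were counted per gene of the RefSeq TAIR10.1 annotation, whose nuclear chromosomes match TAIR10, with Python 3.11.15, numpy 2.4.6 and pandas 2.3.3. Windows under 140 bp were left out (115 genes in the first 500 bp, 1963 in bodies). For equal lengths the mock list was cut by signal at 96.1, with 3048 nucleosomes tied at the limit and taken in genome order. Counting was tested on simulated data. Comparisons carry no test, since each condition is 1 list. The 7 gene lists (88 of 88 genes matched by locus tag), the 16 families and all members were chosen with earlier results of these data known. Other genes named were the 6 with the largest difference in each direction and window at equal lengths with the same direction in whole lists, and a part of them is printed. HDA18 and AT5G05110 come from further down that order, since their nucleosomes lay outside annotated genes, and 1 sequence chosen by the same rule is not reported here. Alternatives were other windows, limits, gene subsets and list lengths, and the list labelled high digest dex.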

Additional observations from a re-analysis of the deposited data

Results flagged for a closer look

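The direction of the difference between dex and mock was not the same at both digests when lists were of equal length. For promoters, the percentage of genes with more in dex minus the percentage with fewer was 13.9 at low digest and -1.4 at high digest, 15.3 percentage points apart. For the first 500 bp it was -7.41 at low digest and 15.0 at high digest, which differ by -22.4 percentage points. Each condition is 1 list, so the difference was not tested. It rests on the list labelled high digest dex, whose name field reads as low digest dex but whose length goes with the label and the paper's count.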

How the results depend on the processing

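No paired analysis was possible because each condition is 1 list, although the labels number the replicates alike, and for the same reason no replicate could be left out. Counts are genes with fewer, then more, in dex, against 10127 and 5983 for promoters, 13285 and 2924 for the first 500 bp and 16813 and 2819 for bodies. The promoter direction turned over at equal lengths (5722 and 9535) and in genes whose upstream 1000 bp overlap no other gene (2694 and 2899). It also turned over with the higher 50% of the dex list against the same number of highest mock nucleosomes (5682 and 7139). That setting, called the higher 50% here, is thus also one of equal lengths. With the list labelled high digest dex set against low digest mock, all 3 windows turned over (3478 and 10428, 3056 and 10457, 2847 and 15143). That list is longer and its digest differs as well as the treatment, so this setting cannot speak to the low digest comparison alone. In the first 500 bp the counts were 8030 and 6004 at equal lengths, 5627 and 5528 with the higher 50%, and 5231 and 1220 in the non-overlapping genes, where fewer genes enter. In bodies they were 9719 and 8179, 8684 and 8265, and 6955 and 1122. A difference of at least 2 left 3648 and 1415 promoters, 4185 and 269 first windows and 807 bodies with more. A promoter of 500 bp left 6293 with fewer. Where no reason is given, the cause was not tested. The other 10 counts stayed within 1.5 times. First nucleosomes within 10 bp, 30% of genes, were 31.0% at equal lengths, 39.2% with the higher 50%, 35.1% with the list labelled high digest dex, 31.6% in the non-overlapping genes, 31.4% from -50 to 250 bp, and 43.6% within 20 bp.

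Depth is unknown and there is no spread between replicates, so small differences in a gene, such as 1 nucleosome, cannot be weighed. Equal lengths depend on the occupancy order within the mock list, and the higher 50% also on that of dex, whose few distinct signals leave many ties.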
